A study of Mus musculus with 119 samples.

Results

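The chemokine genes Cxcl1, Cxcl2 and Cxcl3 were followed through a mouse macrophage RNA-seq study, as the rows of those 3 symbols among the 18098 genes of the deposited table. The rule used names alone and no measured value. All 3 passed the filter on low values, as did 11971 genes in all. Bone marrow–derived macrophages (BMDMs) of C57BL/6(NIMR) mice were grown for a week in L-cell–conditioned medium, and the libraries fell into 25 groups. WT BMDMs (22 libraries) were sequenced without LPS and after 0.5, 1 and 2 h of LPS at 100 ng/ml, with 6, 6, 6 and 4 libraries. Map3k8 D270A BMDMs (24 libraries), in which TPL-2 lacks kinase activity, had 6 at each of these times, and Elk1-/-Elk4-/- BMDMs (16 libraries), which lack the ternary complex factors ELK1 and ELK4, had 4. Nfkb1 SS/AA BMDMs (18 libraries, here Nfkb1 SSAA), whose p105 cannot be phosphorylated by IKK on a pair of serines, had 6 without LPS and 6 at 0.5 and at 1 h. WT BMDMs given 0.1 µM PD0325901, an inhibitor of MKK1/2 (21 libraries), had 6 at 0.5 h and 6 at 1 h of LPS, and 3 each after 10, 40 and 70 min of inhibitor without LPS. WT BMDMs given 2 µM RSKi47, a RSK inhibitor (15 libraries), had 4, 3, 4 and 4 at the times used for WT, and 3 libraries had DMSO for 10 min without LPS. Inhibitors were added 10 min before LPS. There was no DMSO culture with LPS, so each inhibitor with LPS was compared with WT BMDMs given no solvent. The labels place WT and Map3k8 D270A in a joint experiment and each other arm in its own, apart from the DMSO libraries, whose titles place them with PD0325901. Against WT, genotype or inhibitor and experiment thus cannot be told apart for any arm but Map3k8 D270A.

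CXCL1, CXCL2 and CXCL3 are small secreted chemokines with an ELR motif that bind CXCR2 and draw neutrophils to infected tissue. Macrophages make their mRNAs within minutes of TLR4 engagement by LPS, under NF-κB, and the mRNAs carry AU-rich elements that make them short-lived. In the same cells TPL-2, held by p105 until IKK phosphorylates p105, activates MKK1/2 and then ERK1/2, whose targets include RSK and the ternary complex factors. The study was designed to find genes controlled by TPL-2 signalling, and the question for these 3 genes is how far each follows the kinase and its downstream arms.

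The genes lie on the same strand of chromosome 5 (GRCm38.p6), each with 4 exons. Cxcl3 spans chr5:90786101-90788093, Cxcl1 chr5:90891245-90893121 and Cxcl2 chr5:90903899-90905938. The start of Cxcl1 lies 105.144 kb beyond that of Cxcl3 and 12.654 kb before that of Cxcl2. The 250 bases before each start site are shown because all 3 genes answer LPS, with different timing, while their promoters are only partly alike. They are taken from RefSeq, where all 3 symbols matched, and read 5′ to 3′ on the plus strand at chr5:90890995-90891244, chr5:90903649-90903898 and chr5:90785851-90786100. Capitals mark the longest run of bases that all 3 windows share, GGGAATTTCCC, which holds a κB-type site, and the TATA-like ATAAAA.
Cxcl1: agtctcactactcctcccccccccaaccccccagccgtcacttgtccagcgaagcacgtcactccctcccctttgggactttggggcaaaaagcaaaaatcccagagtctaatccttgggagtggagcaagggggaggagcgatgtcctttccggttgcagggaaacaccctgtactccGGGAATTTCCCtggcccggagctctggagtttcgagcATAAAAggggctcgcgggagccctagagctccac
Cxcl2: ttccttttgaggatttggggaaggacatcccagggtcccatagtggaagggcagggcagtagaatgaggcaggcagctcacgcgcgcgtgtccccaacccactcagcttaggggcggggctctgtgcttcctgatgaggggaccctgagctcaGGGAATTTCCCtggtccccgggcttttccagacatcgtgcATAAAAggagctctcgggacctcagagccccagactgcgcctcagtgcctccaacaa
Cxcl3: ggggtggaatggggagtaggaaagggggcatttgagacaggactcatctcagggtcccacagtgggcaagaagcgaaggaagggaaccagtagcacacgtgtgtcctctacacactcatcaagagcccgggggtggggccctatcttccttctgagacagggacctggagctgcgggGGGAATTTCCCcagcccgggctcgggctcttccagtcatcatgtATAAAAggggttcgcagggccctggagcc

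GGGAATTTCCC, 11 bases long, stood once in each window, starting at base -71 in Cxcl1, -97 in Cxcl2 and -73 in Cxcl3. It was chosen for being shared, and it was present, on either strand, in 14 of 32851 promoter windows of this length (0.0426%). ATAAAA, searched on the gene's own strand, began at -34, -57 and -29 and occurred in 10.2% of windows. Searches on both strands found no AP-1 motif TGANTCA (6.75% of windows), no CRE TGACGTCA (1.55%), no Egr motif GCGTGGGCG (0.536%) and no CArG box (1.47%). The Ets core CCGGAA, present in 12.0% of windows, matched once and in Cxcl1 alone, on the opposite strand. TTNNGNAA, a C/EBP-type motif (36.8%), and GGGCGG, an Sp1-type motif (32.7%), each matched once and in Cxcl2 alone. These are letter matches in short windows, chosen after the sequences were seen. Aligned promoter bases were 74.4% identical for Cxcl2 and Cxcl3, 62.3% for Cxcl1 and Cxcl2 and 60.7% for Cxcl1 and Cxcl3.

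The transcripts are related too, which bears on how reads could be assigned. Cxcl2 and Cxcl3 shared 74.9% of aligned bases and an identical run of 110 nt, and 6.31% of the 50-nt windows of Cxcl3 occurred in Cxcl2. The other pairs shared no 50-nt window, and their longest identical run was 23 nt. The authors' counting divides a read that fits 2 transcripts between them by estimate, and how many reads that touched is not known.

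All levels below are the authors' normalised values on a log2 scale whose exact transformation is not stated, so differences are given in its units and not as folds. A call is an adjusted p below 0.05 from 1 limma fit over all libraries, adjusted over all 11971 genes tested, and standard errors (SE) come from that fit. Whether the libraries of 2 groups overlap is described for the members only and was not counted over all genes. The depth of each library cannot be read from these values. The library medians over the genes tested ran from 9.03 to 9.09. In the Elk1-/-Elk4-/- libraries Elk1 was at 6.17 to 6.59, against 9.04 to 9.49 in WT, and Elk4 at 5.51 to 5.88, against 7.57 to 8.49. The point mutations of Map3k8 and Nfkb1 cannot be checked by mRNA level. RSKi47 replicate 4 stood apart from the rest of its group, its root-mean-square distance from the group's median profile being 2.37 times the group's median distance at 2 h, 2.08 times without LPS and 1.62 times at 1 h. Nfkb1 SSAA replicate 2 at 1 h stood apart by 1.87 times. WT replicates 4 to 6 and 7 to 9 also formed separate sets, which differed in 11.4%, 20.1%, 17.9% and 5.76% of genes tested without LPS and at 0.5, 1 and 2 h, the last with 1 library in the later set. Map3k8 D270A replicates 1 to 3 and 4 to 6 differed in 8.79%, 4.82%, 5.95% and 37.7%. Macrophage markers were present in full, with all 9 detected and a summed level of 18.4 to 19.2 in every library. Summed neutrophil markers were at 9.13 to 10.2 in WT, 9.12 to 10.1 in Map3k8 D270A, 9.05 to 10.7 in Nfkb1 SSAA, 10.0 to 10.5 with PD0325901, 10.1 to 10.3 with DMSO, 10.1 to 10.7 with RSKi47 and 10.8 to 11.5 in Elk1-/-Elk4-/-. Mmp8 had group means of 9.04 to 10.13. In WT without LPS it carried most of this sum, at 9.19 against 1.91 to 5.17 for the other 6 tested of the 10 markers. How far Mmp8 carried the sum in the other groups was not measured. The defining Ly6g, Mpo and Elane were too low to be tested, and each had its highest group mean in Elk1-/-Elk4-/- (0.39, 1.91 and 0.44). Summed stromal markers were at 5.06 to 9.42 with RSKi47 and 3.97 to 4.93 in WT. Summed B cell markers, of which 1 was tested, were at 5.52 to 6.47 in WT, 6.45 to 7.08 in Elk1-/-Elk4-/- and 5.27 to 5.64 with RSKi47. The 3 dendritic cell markers summed to 4.18 to 4.32 in WT without LPS and 5.73 to 6.02 after 2 h, the time at which Cxcl3 was highest. The part of these markers in the results below was not tested. In such bulk cultures, fewer cells of a type and less RNA per cell cannot be told apart.

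In WT BMDMs, LPS raised all 3 mRNAs, but Cxcl1 and Cxcl2 were fast and transient, whereas Cxcl3 was slower and still rising at 2 h. Without LPS, Cxcl1 ran from 8.14 to 8.29 (median 8.20), and after 0.5 h from 11.63 to 12.49 (median 12.05). At 1 h it ran from 13.32 to 14.03 (median 13.66), and at 2 h the 4 libraries had 12.18, 11.96, 12.21 and 12.33. No library at one time overlapped those at another, apart from the 0.5 and 2 h groups. The rise over no LPS was 3.85 (SE 0.11, n = 6) at 0.5 h, 5.45 at 1 h and 3.96 (SE 0.12, n = 4) at 2 h, with limma adjusted p of 1.86e-54, 4.95e-68 and 3.25e-52. The genes called were 12% of those tested at 0.5 h, 47.7% at 1 h and 72% at 2 h, whereas a called rise of at least 1 was seen in 0.618%, 3.17% and 7.71%.

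Cxcl2 also peaked at 1 h. It was at 9.84 to 9.90 (median 9.88) without LPS, 13.44 to 14.31 (median 13.80) at 0.5 h and 14.99 to 15.46 (median 15.23) at 1 h. At 2 h the libraries had 13.10, 12.83, 12.99 and 13.20, all below the lowest at 0.5 h. The rise over no LPS was 3.96 (SE 0.08) at 0.5 h, 5.35 at 1 h and 3.16 (SE 0.09) at 2 h. From 1 to 2 h Cxcl2 fell by 2.20 (SE 0.09, limma adjusted p = 1.93e-39) and Cxcl1 fell by 1.49 (SE 0.12, limma adjusted p = 1.78e-20), in a step where 32.2% of genes tested fell and 2.15% fell by at least 1.

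Cxcl3 started far lower, at 4.06 to 4.57 (median 4.38). At 0.5 h it had reached only 5.16 to 5.71 (median 5.50), a rise of 1.1 (SE 0.13, limma adjusted p = 8.62e-12). At 1 h it ran from 7.69 to 8.68 (median 8.26), a further rise of 2.74 in a step where 20.6% of genes tested rose. At 2 h the libraries had 10.11, 9.79, 9.80 and 10.07, a rise of 1.74 from 1 h (SE 0.14, limma adjusted p = 1.70e-20) where 33.7% of genes rose. None of the 4 times overlapped for Cxcl3. Per kb of transcript, the WT means at 1 h were 13.73 ± 0.24 for Cxcl1, 15.08 ± 0.18 for Cxcl2 and 8.18 ± 0.41 for Cxcl3 (SD, n = 6). Whether the deposited values were already corrected for length is not given.

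**Figure D1:**
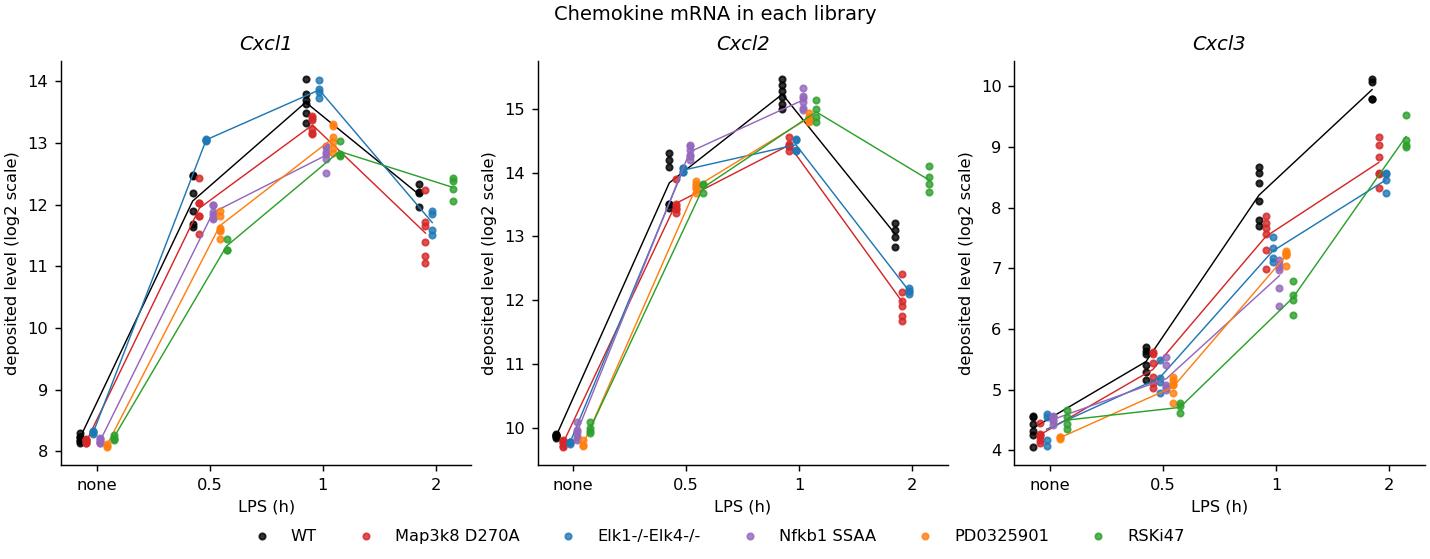
Deposited level (log2 scale) of Cxcl1, Cxcl2 and Cxcl3 in each library against hours of LPS, coloured by genotype or inhibitor. Points are libraries and lines join group means, and the PD0325901 points without LPS are the 10 min cultures. Cxcl1 and Cxcl2 peaked at 1 h in WT at means of 13.66 and 15.23, whereas Cxcl3 was highest at 2 h at a mean of 9.95.

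Across all 25 groups ordered by mean, Cxcl1 ran from 8.07 with DMSO to 13.66 in WT at 1 h and 13.86 in Elk1-/-Elk4-/- at 1 h, and these last 2 did not differ beyond the larger SD. Cxcl2 ran from 9.62 after 70 min of PD0325901 to 15.13 in Nfkb1 SSAA and 15.23 in WT, both at 1 h, which again lay within their spread. Cxcl3 ran from 4.16 with DMSO to 9.17 with RSKi47 and 9.95 in WT, both at 2 h, and here the gap was beyond the spread. Of the 24 neighbouring gaps in each order, 8 for Cxcl1, 11 for Cxcl2 and 9 for Cxcl3 exceeded the larger SD, so most neighbours did not differ beyond their spread. LPS raised Cxcl1 and Cxcl2 in every arm at every time measured, and Cxcl3 in all but RSKi47 at 0.5 h (0.21, limma adjusted p = 0.602). Among all genes tested, LPS raised 4.27%, 22.5% and 35.1% at 0.5, 1 and 2 h in Map3k8 D270A, 3.32%, 17.1% and 35.3% in Elk1-/-Elk4-/-, and 3.39%, 15% and 32.5% with RSKi47. It raised 8.55% and 22.5% at 0.5 and 1 h in Nfkb1 SSAA, and 9.38% and 21.9% with PD0325901.

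Compared with WT at the same time, none of the 3 genes was called in the 4 other arms that had untreated or RSKi47-treated cells without LPS (0 of 12 comparisons), where 1.71% of genes tested were called in Map3k8 D270A, 53.6% in Elk1-/-Elk4-/-, 32% in Nfkb1 SSAA and 53% with RSKi47. The pooled SE, which includes the more variable LPS groups, was wide for such cells. With only the groups compared in the fit, Cxcl1 in Elk1-/-Elk4-/- (0.10) and Cxcl2 in Elk1-/-Elk4-/- (-0.11) and with RSKi47 (0.11) passed. Cxcl2 in Map3k8 D270A without LPS, at 9.70 to 9.81, lay wholly below WT (9.84 to 9.90) and was called in neither fit (-0.12, limma adjusted p = 0.618 and 0.0848). After LPS, 25 of 39 comparisons were lower than WT, 3 were higher and 11 were not called. Cxcl3 was lower in 10 of its 13 and higher in none, Cxcl1 lower in 8 and higher in 1, and Cxcl2 lower in 7 and higher in 2. A called difference of at least 1 below WT was found for Cxcl3 in 4 comparisons, for Cxcl2 in 1 and for Cxcl1 in none. Over all genes tested, the share lower than WT in these comparisons ran from 1.11% to 26.9%, the share higher from 0.727% to 28.7%, and the share lower by at least 1 from 0.1% to 1.1%.

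**Figure D2:**
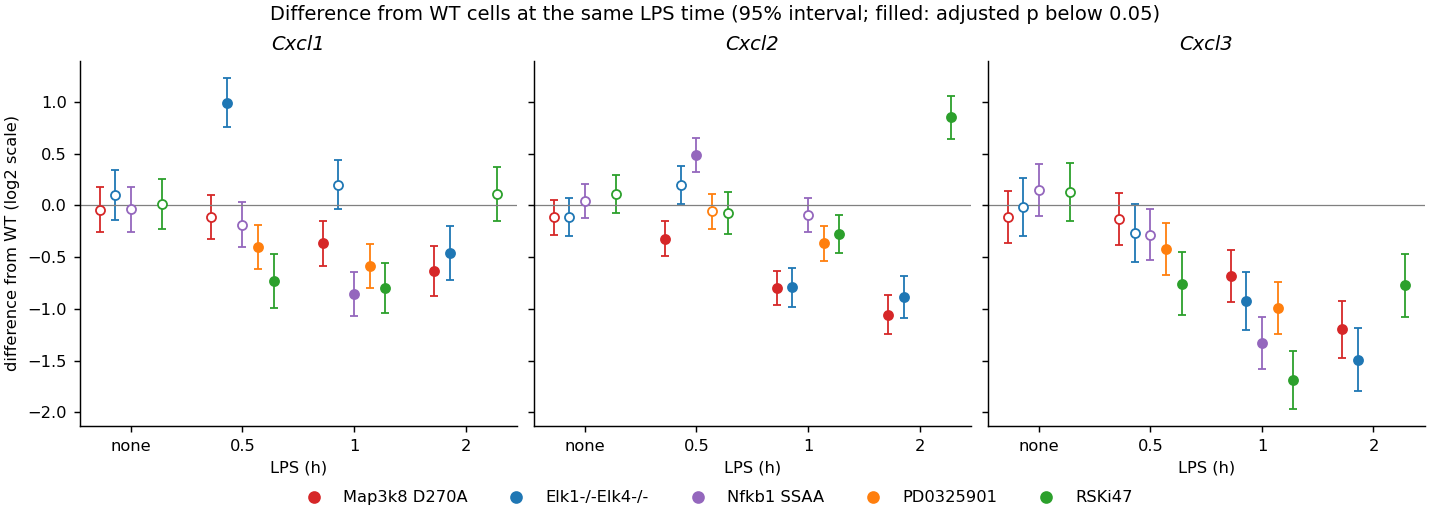
Difference from WT at the same LPS time (deposited log2 units) for each gene and arm, from the limma fit, with 95% confidence intervals. Filled points passed an adjusted p below 0.05 and open points did not. Cxcl3 lay below WT in every comparison after LPS, lowest at -1.69 with RSKi47 at 1 h, and the 3 points called above WT were Cxcl1 in Elk1-/-Elk4-/- at 0.5 h, Cxcl2 in Nfkb1 SSAA at 0.5 h and Cxcl2 with RSKi47 at 2 h.

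Loss of TPL-2 kinase activity left the 3 mRNAs inducible by LPS, at lower levels than in WT at 1 and 2 h. In Map3k8 D270A BMDMs Cxcl2 was at 13.37 to 13.90 (median 13.45) at 0.5 h, 14.33 to 14.56 (median 14.42) at 1 h and 11.68 to 12.40 (median 11.94) at 2 h. Against WT it was lower by 0.32 (SE 0.08, limma adjusted p = 0.0176), 0.80 (adjusted p = 4.51e-13) and 1.06 (SE 0.09, adjusted p = 6.20e-17). The groups overlapped at 0.5 h and did not at 1 and 2 h. All 3 genes were called lower at 1 h and at 2 h, where 4.8% and 13.6% of genes tested were lower and 0.242% and 0.551% lower by at least 1. At 0.5 h Cxcl2 alone was called, among 1.11% of genes called lower, and that call was lost without WT replicate 7, 8 or 9 or Map3k8 D270A replicate 1 or 2. Set against WT replicates 4 to 6, Map3k8 D270A replicates 1 to 3 differed by -0.07, and set against WT replicates 7 to 9, replicates 4 to 6 differed by -0.57, a gap of -0.50 (limma adjusted p = 0.0251). No label ties the numbers of one genotype to those of the other, so this matching followed their order alone. Within WT the later replicates were 0.71 higher at that time (limma adjusted p = 9.99e-10), and within Map3k8 D270A 0.21 higher (adjusted p = 0.160).

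Cxcl3 in Map3k8 D270A had 6.99 to 7.87 (median 7.61) at 1 h and 8.32 to 9.17 (median 8.70) at 2 h. It was lower than WT by 0.68 (SE 0.13, limma adjusted p = 2.57e-05) with overlap, then by 1.2 (SE 0.14, adjusted p = 1.46e-11) without. Cxcl1 had smaller differences. It ran from 13.14 to 13.44 (median 13.30) at 1 h and from 11.06 to 12.24 (median 11.52) at 2 h. Its differences were -0.37 (SE 0.11, limma adjusted p = 0.0142) and -0.63 (SE 0.12, adjusted p = 1.45e-05), and its groups overlapped at both times. The differences at 2 h were present in both replicate sets, at -0.80 and -0.57 for Cxcl1, -1.04 and -1.18 for Cxcl2 and -1.05 and -1.44 for Cxcl3, although the later set had 1 WT library at that time. Between its own replicate sets at 2 h, Map3k8 D270A differed by 0.45 for Cxcl1 (limma adjusted p = 0.00311), 0.09 for Cxcl2 (adjusted p = 0.444) and -0.22 for Cxcl3 (adjusted p = 0.252). At 1 h Cxcl1 differed by -0.56 in the first set and -0.18 in the second, and the call was lost with WT replicates 7 to 9 as control and without WT replicate 6. With only the Map3k8 D270A and WT groups of the LPS time compared in the fit, Cxcl1 at 1 and 2 h, Cxcl3 at 1 h and Cxcl2 at 0.5 h were not called. With no LPS subtracted, the deficit of Cxcl2 was called at 1 h (-0.68, limma adjusted p = 2.18e-05, 2.4% of genes called) and those of all 3 genes at 2 h (17.2% called), at -0.59, -0.94 and -1.09. The deficit of Cxcl3 at 1 h was then -0.57 and not called (limma adjusted p = 0.0681).

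The 2 sets of WT libraries bear on every arm. WT replicates 7 to 9 lay above replicates 4 to 6 at 0.5 h, by 0.64 for Cxcl1 and 0.71 for Cxcl2, and below them at 1 h, by 0.36, 0.29 and 0.69 for Cxcl1, Cxcl2 and Cxcl3.

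**Figure D3:**
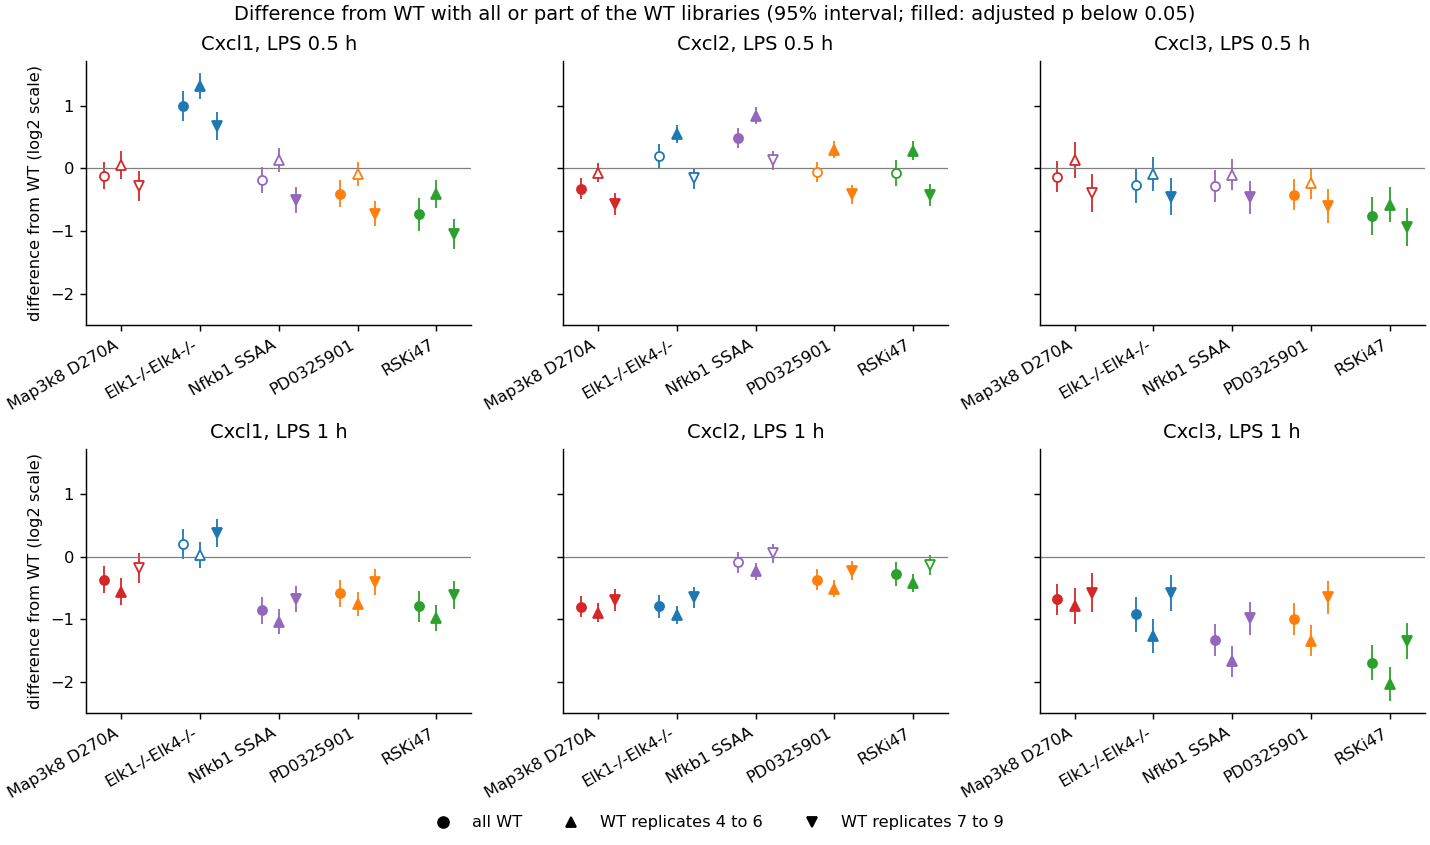
Difference from WT (deposited log2 units, limma, with 95% confidence intervals) for each gene and arm after LPS for 0.5 h (upper row) or 1 h (lower row), with all WT libraries (circles), WT replicates 4 to 6 (upward triangles) or 7 to 9 (downward triangles) as control, Map3k8 D270A being split into replicates 1 to 3 and 4 to 6. Filled symbols passed an adjusted p below 0.05, and Cxcl2 with PD0325901 at 0.5 h lay at 0.30 with the first set and -0.41 with the second.

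Without ELK1 and ELK4, Cxcl1 was higher early and lower late, while Cxcl2 and Cxcl3 were lower from 1 h. Cxcl1 in Elk1-/-Elk4-/- BMDMs was at 13.05, 13.05, 13.07 and 13.03 at 0.5 h, all above the highest WT library (12.49). The difference was 0.99 (SE 0.12, limma adjusted p = 6.92e-11), in a comparison where 23.5% of genes tested were higher. At 1 h it had 13.72, 13.88, 14.02 and 13.82, a difference of 0.20 (limma adjusted p = 0.152; 0.38 and called against WT replicates 7 to 9), and at 2 h 11.58, 11.85, 11.89 and 11.51, all below WT (-0.46, SE 0.13, adjusted p = 0.00227). The 0.5 h difference was 1.31 with WT replicates 4 to 6 as control and 0.67 with replicates 7 to 9, both called. From 0.5 to 1 h the rise of Cxcl1 was 0.79 smaller than in WT (limma adjusted p = 0.00156, 2.21% of genes called), and with WT replicates 7 to 9 as control it was 0.30 smaller and not called.

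Cxcl2 in Elk1-/-Elk4-/- had 14.071, 14.070, 14.001 and 14.001 at 0.5 h, within the WT range (0.20, limma adjusted p = 0.0768). It had 14.34, 14.53, 14.51 and 14.36 at 1 h, and 12.10, 12.19, 12.14 and 12.15 at 2 h. Both later groups lay wholly below WT, by 0.79 (SE 0.09, limma adjusted p = 1.31e-11) and 0.89 (SE 0.10, adjusted p = 4.50e-12), where 26.9% and 23.8% of genes tested were lower. Cxcl3 showed the larger deficits, again without overlap. At 1 h it had 7.33, 7.17, 7.11 and 7.52 (-0.92, SE 0.14, limma adjusted p = 3.43e-08) and at 2 h 8.24, 8.57, 8.56 and 8.46 (-1.49, SE 0.15, adjusted p = 4.45e-14), whereas 0.969% of genes tested were lower by at least 1 at 2 h. The 0.5 h values of Cxcl2 and Cxcl3 moved with the WT libraries used. Cxcl2 was 0.55 above WT replicates 4 to 6, which was called, and Cxcl3 0.45 below WT replicates 7 to 9, also called. Neutrophil markers were higher in these BMDMs than in WT at every time, 6 of 7 tested, with median differences of 3.04, 2.86 and 3.18 at 0.5, 1 and 2 h, where 23.5%, 28.3% and 28.7% of all genes were higher.

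In Nfkb1 SSAA BMDMs the 3 genes parted. Cxcl1 was at 11.77 to 12.00 (median 11.85) at 0.5 h, inside the WT range (-0.19, limma adjusted p = 0.188), but was called against WT replicates 7 to 9 alone (-0.50). At 1 h it ran from 12.51 to 12.96 (median 12.84), wholly below WT (-0.86, SE 0.11, adjusted p = 1.19e-10). Cxcl2 went the other way at 0.5 h, with 14.19 to 14.43 (median 14.32) and a difference of 0.48 (SE 0.08, limma adjusted p = 2.13e-06). The groups overlapped, 16.7% of genes tested were higher at this time, and against WT replicates 7 to 9 alone the difference was 0.13 and not called. At 1 h Cxcl2 ran from 14.98 to 15.33 (median 15.14), over the WT range (-0.09, limma adjusted p = 0.384), and was called against WT replicates 4 to 6 alone (-0.24). Cxcl3 was at 4.99 to 5.54 (median 5.06) at 0.5 h (-0.28, limma adjusted p = 0.0756, called against WT replicates 7 to 9 alone at -0.46 and without WT replicate 4 at -0.34) and at 6.38 to 7.13 (median 7.00) at 1 h, wholly below WT by 1.33 (SE 0.13, adjusted p = 8.16e-16). Of the genes tested, 21.9% were lower at 1 h and 0.668% lower by at least 1. Without replicate 2, which stood apart, the 1 h differences were -0.85, -0.13 and -1.38 for Cxcl1, Cxcl2 and Cxcl3, and no call changed.

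With MKK1/2 blocked by PD0325901, all 3 genes were called lower than WT at 1 h, where 19.3% of genes tested were lower. The difference was largest for Cxcl3. Their libraries lay wholly below those of WT, Cxcl1 by the narrowest of margins (highest library 13.315, lowest WT library 13.320). Cxcl1 was at 11.44 to 11.89 (median 11.61) at 0.5 h and 12.84 to 13.32 (median 13.06) at 1 h. It was lower by 0.40 (SE 0.11, limma adjusted p = 0.00260) and 0.58 (adjusted p = 8.14e-06). Cxcl2 was at 13.67 to 13.86 (median 13.79) and then 14.80 to 14.94 (median 14.87), with differences of -0.06 (limma adjusted p = 0.643) and -0.37 (adjusted p = 2.94e-04). Cxcl3 was at 4.78 to 5.21 (median 5.08) and then 7.04 to 7.29 (median 7.23), lower by 0.42 (limma adjusted p = 0.00774) and 1.00 (adjusted p = 2.79e-10). Of the genes tested, 15% were lower at 0.5 h and 19.3% at 1 h. The 0.5 h result depended on the WT set, since Cxcl2 was 0.30 above WT replicates 4 to 6 and 0.41 below replicates 7 to 9, both called, while Cxcl1 (-0.084) and Cxcl3 (-0.24) were not called against the first set. PD0325901 for 10 min without LPS differed from DMSO by 0.02, 0.00 and 0.05 for the 3 genes. None of the 11971 genes tested was called in that limma comparison, and 245 had an unadjusted p below 0.05. DMSO itself lay 0.13, 0.13 and 0.20 below untreated WT, none called by limma, among 23.6% of genes called, although Cxcl1 and Cxcl2 passed with only these groups in the fit (limma adjusted p = 0.0304 and 0.00920), and Cxcl3 did against WT replicates 4 to 6 (-0.36, adjusted p = 0.0472). Longer exposure to the inhibitor alone, at 40 or 70 min against 10 min, moved none of them past the limma test, where 3.58% and 6.09% of genes were called, and Cxcl2 had 9.61, 9.66 and 9.59 after 70 min. Neutrophil markers were higher than in WT with PD0325901, 7 of 7 tested at 0.5 h and 6 of 7 at 1 h, by medians of 1.21 and 1.09, where 14.5% and 16.4% of all genes were higher. Their summed level with DMSO and no LPS, 10.1 to 10.3, lay within that with PD0325901, 10.0 to 10.5.

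With RSKi47, mean Cxcl3 was the lowest of any arm at 0.5 and 1 h, and mean Cxcl2 the highest of the 4 arms measured at 2 h. Cxcl1 had 11.27, 11.45 and 11.27 at 0.5 h and 12.82, 13.04, 12.81 and 12.79 at 1 h, all below WT, by 0.73 (SE 0.13, limma adjusted p = 2.78e-06) and 0.80 (SE 0.12, adjusted p = 2.77e-08). At 2 h it had 12.06, 12.43, 12.25 and 12.38, overlapping WT, with 2 of the 4 above the highest WT library (0.11, limma adjusted p = 0.500). Cxcl2 had 13.81, 13.67 and 13.81 at 0.5 h, then 14.88, 14.997, 15.13 and 14.79 at 1 h, and 13.81, 13.92, 14.10 and 13.69 at 2 h. The last group lay wholly above WT, by 0.85 (SE 0.10, limma adjusted p = 1.85e-11), where 27.5% of genes tested were higher. The 1 h difference of Cxcl2 was -0.28 (limma adjusted p = 0.00980), with overlap, and without replicate 4 it was -0.22 and no longer called (adjusted p = 0.0587), nor was it against WT replicates 7 to 9 (-0.13). At 0.5 h Cxcl2 was 0.28 above WT replicates 4 to 6 and 0.43 below replicates 7 to 9, both called, against a difference of -0.08 from all WT libraries, which was not.

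Cxcl3 with RSKi47 had 4.78, 4.61 and 4.74 at 0.5 h, 6.79, 6.55, 6.23 and 6.49 at 1 h and 9.03, 9.12, 9.01 and 9.53 at 2 h. Each group lay wholly below WT, by 0.76 (SE 0.15, limma adjusted p = 2.67e-05), 1.69 (SE 0.14, adjusted p = 1.32e-18) and 0.77 (SE 0.15, adjusted p = 1.31e-05). Genes called lower were 24.5%, 26.3% and 24.6% of those tested, and 0.576% were lower by at least 1 at 1 h. From 1 to 2 h the change of every member differed from that in WT, by 0.91 for Cxcl1 (limma adjusted p = 8.23e-05), 1.13 for Cxcl2 (adjusted p = 4.93e-10) and 0.92 for Cxcl3 (adjusted p = 7.30e-04), in a test that called 14.9% of genes. With WT replicates 7 to 9 as control, 1 library at 2 h, those of Cxcl1 (0.57) and Cxcl3 (0.44) were not called. Over that hour Cxcl1 fell by 0.58 and Cxcl2 fell by 1.07 with RSKi47, and Cxcl3 rose by 2.65. Without replicate 4 the 2 h differences from WT were 0.91 for Cxcl2 and -0.89 for Cxcl3. Stromal markers were higher than in WT, 2 of 2 tested at each time, and neutrophil markers 5 of 7 at 0.5 h and 6 of 7 later, where 23.7%, 26.5% and 27.5% of all genes were higher at 0.5, 1 and 2 h.

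The differences from WT were also taken with the cells without LPS subtracted from each arm (for PD0325901, cells given the inhibitor alone for 40 or 70 min), a comparison with larger SEs. RSKi47 cells without LPS had the inhibitor for 10 min only, so their exposure was shorter than in the RSKi47 cultures with LPS. For RSKi47, LPS and time in the inhibitor thus cannot be told apart in this comparison. In Elk1-/-Elk4-/- Cxcl1 was called at 0.5 h (0.89, limma adjusted p = 0.00207, 0.109% of genes called) and at 2 h (-0.56, adjusted p = 0.0186, 17.8% called). Cxcl2 (-0.68 and -0.77) and Cxcl3 (-0.91 and -1.47) were called there at 1 and 2 h, with 1.53% of genes called at 1 h. The call of Cxcl1 at 0.5 h was lost with WT replicates 7 to 9 (0.53), that at 2 h without Elk1-/-Elk4-/- replicate 1 or 4 (-0.51 for both), and that of Cxcl3 at 1 h without replicate 3 (-0.76) or with WT replicates 7 to 9 (-0.72). In Nfkb1 SSAA Cxcl1 (-0.82) and Cxcl3 (-1.47) were called at 1 h (6.07% of genes called). Cxcl2 in Nfkb1 SSAA at 0.5 h was at 0.44 and not called (limma adjusted p = 0.0911, 0.309% of genes called), but was with arm and replicate number as a random block (adjusted p = 0.0208) and without WT replicate 7, 8 or 9 (0.52, 0.49 and 0.54).

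With PD0325901 and cells without LPS subtracted, Cxcl3 was called at 1 h (-0.94, limma adjusted p = 6.56e-04, 3.58% of genes called), whereas Cxcl1 (-0.48, adjusted p = 0.111) and Cxcl2 (-0.11, adjusted p = 0.826) were not, and at 0.5 h none was (1.49% of genes called). With RSKi47 Cxcl1 (-0.81) and Cxcl3 (-1.82) were called at 1 h (5.54% of genes called), and Cxcl2 (0.74) and Cxcl3 (-0.91) at 2 h (21% called). Cxcl2 with RSKi47 at 1 h (-0.39, limma adjusted p = 0.0691) and Cxcl1 (-0.74, adjusted p = 0.0842) and Cxcl3 (-0.89, adjusted p = 0.0643) at 0.5 h were not, where 0.0251% of genes were called at 0.5 h. The random block brought these 3 (adjusted p = 0.0233, 0.00729 and 0.00845), Cxcl1 with PD0325901 at 1 h (adjusted p = 0.0247) and Cxcl3 in Map3k8 D270A at 1 h (adjusted p = 0.0116) past the limma test.

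The arms were also compared with each other, in contrasts that use no WT library. Nfkb1 SSAA and Map3k8 D270A moved Cxcl2 apart. Cxcl2 was 0.81 higher in Nfkb1 SSAA at 0.5 h (limma adjusted p = 1.01e-13) and 0.70 higher at 1 h (adjusted p = 1.62e-11), whereas Cxcl1 and Cxcl3 were lower there at 1 h by 0.49 (adjusted p = 9.71e-05) and 0.65 (adjusted p = 1.16e-05). Of all genes tested, 20.5% were higher at 0.5 h, and 22.7% were higher and 24.6% lower at 1 h. PD0325901 against Map3k8 D270A had the same signs, with Cxcl2 higher by 0.26 at 0.5 h and 0.43 at 1 h (limma adjusted p = 0.0111 and 2.00e-05), Cxcl1 lower by 0.29 at 0.5 h (adjusted p = 0.0329) and Cxcl3 lower by 0.31 at 1 h (adjusted p = 0.0386), where 31.2% and 40.7% of genes were called. The call of Cxcl1 was lost without Map3k8 D270A replicate 1, 4 or 5 or PD0325901 replicate 1, 3, 4 or 6 (-0.37 to -0.19 over all 12 omissions), and that of Cxcl3 without Map3k8 D270A replicate 1, 2, 3 or 4 or PD0325901 replicate 1, 2, 4 or 6 (-0.42 to -0.24). Elk1-/-Elk4-/- against Map3k8 D270A had Cxcl1 higher by 1.11 at 0.5 h (limma adjusted p = 8.17e-13) and 0.57 at 1 h (adjusted p = 4.25e-05), and Cxcl2 higher by 0.52 at 0.5 h (adjusted p = 2.75e-06), with 51.3% and 53.3% of genes called. Cxcl2 at 1 h differed there by 0.01 (95% confidence interval -0.18 to 0.19), and at 2 h none of the 3 was called (0.17, 0.17 and -0.29, with 51.2% of genes called). Without Map3k8 D270A replicate 4 Cxcl1 (0.31) and Cxcl2 (0.26) were called at 2 h, and without replicate 6 Cxcl3 (-0.38). RSKi47 against PD0325901 had Cxcl3 lower by 0.70 at 1 h (limma adjusted p = 1.68e-05) and Cxcl1 lower by 0.33 at 0.5 h (adjusted p = 0.0333), where 53.9% and 49.5% of genes were called, while Cxcl2 at 0.5 h differed by -0.02 (95% confidence interval -0.22 to 0.19). The call of Cxcl1 was lost without PD0325901 replicate 2 or 5 or RSKi47 replicate 1 or 3 (-0.39 to -0.28 over all omissions).

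The members share a library, so their spacing within it was also compared. Library scaling and gene length would cancel in it on a pure log scale, but the scale here is not stated, and low values such as those of Cxcl3 may be compressed. In all, 39 such comparisons with WT were tested by an exact two-sided permutation test over libraries, with Benjamini-Hochberg adjustment. Cxcl2 exceeded Cxcl1 by 1.57 ± 0.08 (SD, n = 6) in WT at 1 h. This spacing was narrower in Map3k8 D270A, at 1.14 ± 0.16 (n = 6, exact permutation p = 0.00216, adjusted p = 0.0121), and in Elk1-/-Elk4-/-, at 0.57 ± 0.07 (n = 4, exact permutation p = 0.00952, adjusted p = 0.0265). It was wider in Nfkb1 SSAA, at 2.33 ± 0.18 (n = 6, exact permutation, adjusted p = 0.0121), with PD0325901, at 1.78 ± 0.15 (n = 6, exact permutation, adjusted p = 0.0317), and with RSKi47, at 2.09 ± 0.16 (n = 4, exact permutation, adjusted p = 0.0265). Only the PD0325901 libraries overlapped those of WT for this pair at 1 h, and that call was lost without WT replicate 4, 5 or 6 (0.19 to 0.22, exact permutation, adjusted p of 0.0528 to 0.0533). The p-values of 0.00216 and 0.00952 are the smallest that 6 against 6 and 6 against 4 libraries allow.

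Cxcl3 minus Cxcl2 was -7.02 ± 0.25 in WT at 1 h (SD, n = 6). It was -6.72, -6.96 and -6.78 in WT replicates 4 to 6 and -7.29, -7.30 and -7.08 in replicates 7 to 9, without overlap. The spacing was not tested against either set alone. In Map3k8 D270A and Elk1-/-Elk4-/- the spacing was shifted by 0.12 and -0.13 (exact permutation, adjusted p = 0.490 for both). Cxcl3 was further below Cxcl2 in Nfkb1 SSAA by 1.24 (exact permutation, adjusted p = 0.0121), with PD0325901 by 0.63 (adjusted p = 0.0121) and with RSKi47 by 1.41 (adjusted p = 0.0265), all without overlap. At 0.5 and 2 h the shift in Elk1-/-Elk4-/- was -0.47, with overlap, and -0.60, without (exact permutation, adjusted p = 0.0384 for both). Each of these calls was lost in 8 of 10 omissions of a replicate. In Map3k8 D270A the shift was 0.19 and -0.14 at those times (exact permutation, adjusted p = 0.237 and 0.248). At 2 h, Cxcl2 exceeded Cxcl1 by 0.86 in WT, 0.44 in Map3k8 D270A, 0.43 in Elk1-/-Elk4-/- and 1.60 with RSKi47. The spacing of these members was narrower than in WT in both genotypes and wider with RSKi47 (exact permutation, adjusted p = 0.0380, 0.0384 and 0.0384), the Map3k8 D270A libraries overlapping those of WT. With 4 against 4 libraries the smallest p is 0.0286, so the calls in Elk1-/-Elk4-/- and with RSKi47 were lost without any 1 of their 8 libraries, and that in Map3k8 D270A was lost without any 1 of the 4 WT libraries (-0.45 to -0.41, adjusted p of 0.0516 to 0.0743). Whether arms differ from each other in this spacing was not tested.

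**Figure D4:**
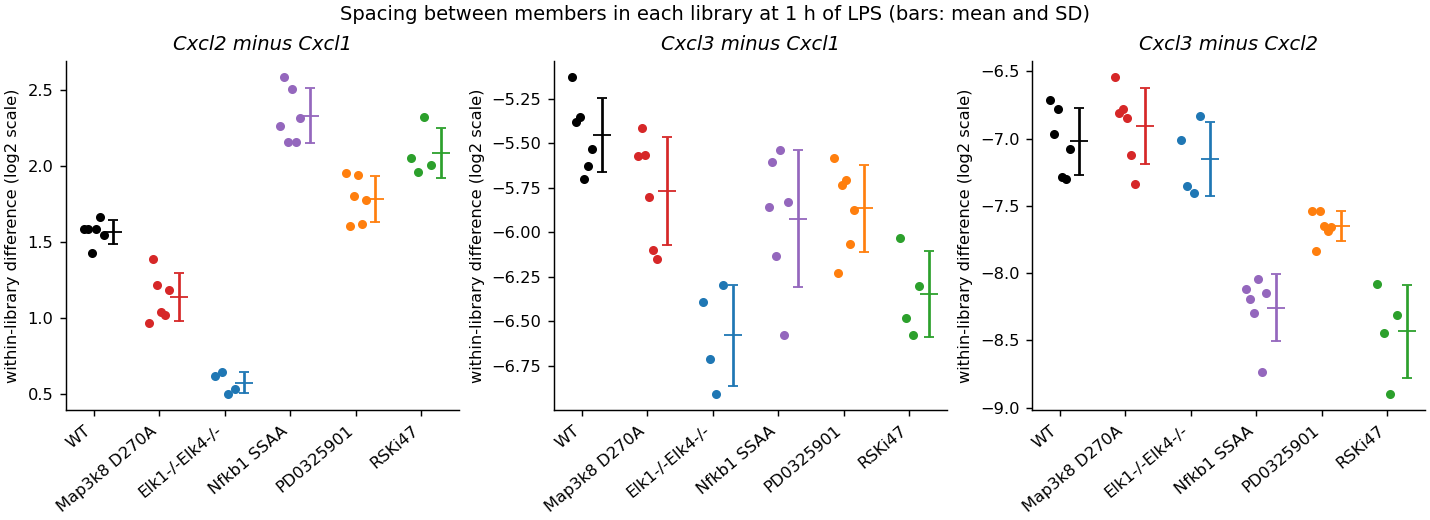
Within-library differences between members (deposited log2 units) at 1 h of LPS, by arm. Points are libraries and bars are group means with SD. Cxcl2 minus Cxcl1 averaged 1.57 in WT, 0.57 in Elk1-/-Elk4-/- and 2.33 in Nfkb1 SSAA, and Cxcl3 minus Cxcl2 averaged -7.02 in WT and -8.43 with RSKi47.

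Over the 25 group means, Cxcl1 and Cxcl2 had a Pearson r of 0.967, Cxcl1 and Cxcl3 of 0.707 and Cxcl2 and Cxcl3 of 0.584. These points share genotypes and LPS times. After each group's mean was subtracted, the single libraries gave 0.711, 0.357 and 0.436, values that share each library's scaling. The genes most like Cxcl1 over the group means were Nfkbiz (0.986), Tnfsf9 (0.984), Tnfaip3 (0.981), Tnf (0.978) and Hspa1a (0.974). Nfkbiz encodes the atypical nuclear inhibitor IκBζ, and Tnfaip3 the ubiquitin-editing protein A20. Cxcl2 was most like Tnf (0.983), Klf6 (0.969), Nfkbiz (0.969), Tnfsf9 (0.967) and Junb (0.967), so that Tnf, Nfkbiz and Tnfsf9 were in both sets. None of the genes most like Cxcl3 was in either, and they were Bcl2a1c (0.989), Nfkb2 (0.982), Klf7 (0.981), Gm13889 (0.981) and Bcl2a1d (0.980). Nfkb2 encodes p100, the precursor of the noncanonical subunit p52, and the Bcl2a1 genes form a family of near-identical sequence, whose reads may be shared.

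A list of 8 related genes held other CXCR2 ligands and their receptors, and also Pf4, which encodes a CXC chemokine without the ELR motif, and the atypical receptor gene Ackr3. Of these, 7 were in the table and 3 were tested. Cxcl5, which lies in the same chemokine cluster, was at 0.04 in WT without LPS and had its highest group mean, 1.01, in WT at 2 h, too low to be tested. Pf4 had group means of 10.65 to 11.91, Ppbp of 3.06 to 3.73 and the receptor gene Cxcr2 of 2.68 to 3.44. None of these 3 was called with LPS in WT at 1 h, where 47.7% of all genes were. In Elk1-/-Elk4-/- all 3 were higher at 0.5 h, by a median of 0.52, where 23.5% of all genes were. With RSKi47 Ppbp was lower than WT by 0.32 at 0.5 h (limma adjusted p = 0.0113) and 0.29 at 2 h (adjusted p = 0.0199), where 24.5% and 24.6% of all genes were lower.

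Regulators of these chemokines were counted from fixed lists, which are read against the shares of all genes tested. With LPS at 1 h in WT, 24.3% rose and 23.4% fell. Against WT at 1 h, 4.8% were lower and 5.87% higher in Map3k8 D270A, 26.9% and 28.3% in Elk1-/-Elk4-/-, 21.9% and 20.5% in Nfkb1 SSAA, 19.3% and 16.4% with PD0325901 and 26.3% and 26.5% with RSKi47. The NF-κB subunits and inhibitors rose with LPS at 1 h in WT, 10 of 10, by a median of 1.93, against a median of 0.00 over all genes tested. Against WT at 1 h, 7 of 10 were lower in Map3k8 D270A (median -0.22), 7 in Elk1-/-Elk4-/- (-0.22), 7 in Nfkb1 SSAA (-0.24), 6 with PD0325901 (-0.25) and 6 with RSKi47 (-0.31), and none was higher. Nfkbia, the IκBα gene, was lower in Nfkb1 SSAA by 0.62 (limma adjusted p = 1.43e-19), whereas its difference was -0.12 in Map3k8 D270A (limma adjusted p = 0.109) and -0.10 with RSKi47 (adjusted p = 0.113). Medians over all genes tested were within 0.02 of 0 in these comparisons.

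Of 15 AP-1, ternary complex and Egr factors, 15 rose with LPS at 1 h in WT (median 0.85). At 1 h 8 were lower in Map3k8 D270A, 10 in Elk1-/-Elk4-/-, 11 in Nfkb1 SSAA, 12 with PD0325901 and 7 with RSKi47, and 0, 0, 1, 1 and 3 were higher. Elk1 and Elk4 themselves are on this list, so 2 of the 10 in Elk1-/-Elk4-/- were set by the genotype. Egr1, an ERK-driven immediate early gene, was lower by 3.24 in Map3k8 D270A, 4.04 in Elk1-/-Elk4-/-, 3.06 in Nfkb1 SSAA and 4.22 with PD0325901, and higher by 1.01 with RSKi47 (limma adjusted p = 9.89e-08). Fos at 1 h was lower by 1.16, 1.62 and 1.44 in Map3k8 D270A, in Nfkb1 SSAA and with PD0325901. Its differences in Elk1-/-Elk4-/- (-0.24) and with RSKi47 (0.20) were not called at that time. Fos had its highest group mean in WT at 0.5 h (13.84), so the 1 h values do not cover its peak. The paper reports lower Fos family mRNAs after LPS in cells without ELK1 and ELK4.

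A list of 10 genes on mRNA decay held 8 RNA-binding proteins and decay factors and the signalling proteins Tnfaip3 and Traf3ip2. Of the 10, 7 rose and 1 fell with LPS at 1 h in WT (median 0.40), and of the 8, 6 rose and 1 fell. Zfp36, which encodes tristetraprolin, a protein that promotes decay of AU-rich mRNAs, was lower at 1 h by 0.96 in Map3k8 D270A, 0.24 in Elk1-/-Elk4-/-, 1.02 in Nfkb1 SSAA and 0.59 with PD0325901. It was higher with RSKi47 by 0.33 (limma adjusted p = 0.00210), where 5 of the 8 were higher and 1 lower, against 26.5% and 26.3% of all genes. Without LPS 4 of the 8 were already higher with RSKi47 and 0 lower, where 53% of all genes were called. At 1 h 0 of the 8 were higher and 3 lower in Map3k8 D270A, 1 and 3 in Elk1-/-Elk4-/-, 0 and 6 in Nfkb1 SSAA and 0 and 6 with PD0325901. Of 12 other secreted inflammatory proteins tested, 12 rose with LPS at 1 h in WT (median 3.05). They were lower than WT at 1 h in 6 cases in Map3k8 D270A (median -0.33) and 8 with RSKi47 (-0.46), with none higher, against 4.8% and 26.3% of all genes lower. In Elk1-/-Elk4-/- 5 were higher and 5 lower, in Nfkb1 SSAA 3 and 7, and with PD0325901 4 and 5. Il1b, like Cxcl3, was lower in every arm at 1 h, by 1.22 in Map3k8 D270A, 0.44 in Elk1-/-Elk4-/-, 1.23 in Nfkb1 SSAA, 1.03 with PD0325901 and 1.18 with RSKi47. Ccl4, encoding the chemokine MIP-1β, was higher in Elk1-/-Elk4-/- (0.31), in Nfkb1 SSAA (0.72) and with PD0325901 (0.67), and lower with RSKi47 by 0.42.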

How the data were processed

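RNA of BMDM cultures was sequenced single end with a strand-specific protocol by the authors. The submitters' processing notes name RSEM 1.2.29, STAR 2.5.1b, DESeq2 1.10.1 and the mm10 build. The authors deposited normalised values on a log2-like scale (-2.40 to 19.8), whose transformation the labels and methods do not give, so differences may be smaller than log2 ratios of counts. One value above 25 was set as missing. Genes were tested where 3 or more libraries reached 10 on the linear scale. Groups came from the sample labels, 1 mean per group, in limma 3.58.1 (R 4.3.3) without a trend, tested first on simulated data. Within-library differences were tested by exact permutation (Python 3.11.15, scipy 1.17.1). Sequences were aligned with Biopython 1.88 and figures drawn with matplotlib 3.10.9. The study's methods call the libraries biological replicates. The members, lists and motifs were chosen with earlier results of these data known. The text names the 3 members, the fixed lists and, per member, the 5 genes with the highest Pearson r over group means. Replicate numbers recurred at several times within an arm. In WT all 30 same-number correlations of deviations from group means exceeded 0.1 (lowest 0.164, median 0.484). So did all 18 in Nfkb1 SSAA (lowest 0.145). The count was 34 of 36 in Map3k8 D270A, 20 of 24 in Elk1-/-Elk4-/-, 20 of 21 with RSKi47 and 14 of 33 with PD0325901. In WT and Map3k8 D270A each number also falls in a single replicate set, so pairing of LPS times and set cannot be told apart there. Across arms the median was 0.004, and numbers were not treated as pairs. Alternatives were other filters, scalings, blocks, WT sets and leaving out each replicate.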

Additional observations from a re-analysis of the deposited data

Results flagged for a closer look

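In 4 of 60 member and group combinations a library lay far from the others of its group, and chance alone gives about 1 in 20. Cxcl1 with RSKi47 at 1 h was at 13.04 in replicate 2, with the next at 12.82. Cxcl2 in Map3k8 D270A at 0.5 h was at 13.90 in replicate 4, with the next at 13.51. Cxcl2 in Elk1-/-Elk4-/- without LPS was at 9.74 in replicate 1, with the next at 9.77. Cxcl3 with PD0325901 at 1 h was at 7.04 in replicate 2, with the next at 7.21.

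The change between neighbouring LPS times differed from that in WT by an interaction test (limma) in several arms. Among all 11971 genes tested, this test gave an unadjusted p below 0.05 from 0.5 to 1 h for 972 in Map3k8 D270A, 1150 in Elk1-/-Elk4-/-, 1664 in Nfkb1 SSAA and 1581 with RSKi47. From 1 to 2 h it did so for 3062 in Elk1-/-Elk4-/- and 3128 with RSKi47. It called 2.21% of genes in Elk1-/-Elk4-/- from 0.5 to 1 h and 14.9% with RSKi47 from 1 to 2 h. From 0.5 to 1 h the difference for Cxcl1 was -0.79 in Elk1-/-Elk4-/- (adjusted p = 0.00156) and -0.67 in Nfkb1 SSAA (adjusted p = 0.00136). For Cxcl2 it was -0.48 in Map3k8 D270A (adjusted p = 0.0149), -0.99 in Elk1-/-Elk4-/- (adjusted p = 6.71e-08) and -0.58 in Nfkb1 SSAA (adjusted p = 2.79e-04). For Cxcl3 it was -1.05 in Nfkb1 SSAA (adjusted p = 6.76e-06) and -0.93 with RSKi47 (adjusted p = 0.00235). From 1 to 2 h Cxcl1 differed by -0.66 in Elk1-/-Elk4-/- (adjusted p = 0.00622) and 0.91 with RSKi47 (adjusted p = 8.23e-05), Cxcl2 by 1.13 with RSKi47 (adjusted p = 4.93e-10) and Cxcl3 by 0.92 with RSKi47 (adjusted p = 7.30e-04). With WT replicates 7 to 9 as control, 8 of these 11 calls were lost. The values were then -0.30 and -0.18 for Cxcl1 in Elk1-/-Elk4-/- and Nfkb1 SSAA, -0.13 and -0.078 for Cxcl2 in Map3k8 D270A and Nfkb1 SSAA, and -0.52 and -0.41 for Cxcl3 in Nfkb1 SSAA and with RSKi47 from 0.5 to 1 h, and 0.57 and 0.44 for Cxcl1 and Cxcl3 with RSKi47 from 1 to 2 h. The Map3k8 D270A value for Cxcl2 also lost the call without WT replicate 4, 5 or 6 (-0.40, -0.37 and -0.36) or Map3k8 D270A replicate 4 (-0.40). The difference of Cxcl2 between Map3k8 D270A and WT at 0.5 h differed by -0.50 between the second and the first replicate set (adjusted p = 0.0251), which were matched across genotypes by the order of their numbers and not by any label.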

How the results depend on the processing

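Results for each gene against WT after LPS were recomputed in the other settings, leaving out single replicates apart. Of these, 341 stayed on the same side of the threshold, 11 gained the call, 15 lost it and 2 reversed. A reversal required a change of sign with a call in either fit, so some results among the 341 changed sign without a call. Cxcl1 in Map3k8 D270A at 0.5 h, for example, was at -0.11, and at 0.05 with the first replicate sets. Of the recomputed results without LPS, 135 stayed on the same side of the threshold and 6 gained the call. The 150 of LPS times within WT stayed on the same side. With WT replicates 4 to 6 as control at 0.5 h, the reversed ones were Cxcl2 with PD0325901 (0.30) and with RSKi47 (0.28). There Cxcl2 in Elk1-/-Elk4-/- (0.55) at 0.5 h and Cxcl2 in Nfkb1 SSAA at 1 h (-0.24) gained the call, and the 0.5 h results of Cxcl1 (-0.084) and Cxcl3 (-0.24) with PD0325901 and of Cxcl2 in Map3k8 D270A (-0.073) lost it. With WT replicates 7 to 9, Cxcl1 in Elk1-/-Elk4-/- at 1 h (0.38) and, at 0.5 h, Cxcl1 in Nfkb1 SSAA (-0.50), Cxcl2 with PD0325901 (-0.41) and RSKi47 (-0.43) and Cxcl3 in Elk1-/-Elk4-/- (-0.45) and Nfkb1 SSAA (-0.46) gained it. Cxcl1 in Map3k8 D270A at 1 h (-0.18), Cxcl2 in Nfkb1 SSAA at 0.5 h (0.13) and Cxcl2 with RSKi47 at 1 h (-0.13) lost it. The causes were not tested.

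With only the groups compared in the fit, values stayed, and calls were lost for Cxcl2 in Map3k8 D270A at 0.5 h (-0.32), Cxcl1 there at 1 h (-0.37) and 2 h (-0.63), Cxcl3 there at 1 h (-0.68) and Cxcl1 with PD0325901 at 0.5 h (-0.40). The fit of 62 WT, Map3k8 D270A and Elk1-/-Elk4-/- libraries lost the first 2 of these, Cxcl2 at 0.5 h (-0.32) and Cxcl1 at 1 h (-0.37). Quantile normalisation lost Cxcl2 with RSKi47 at 1 h (-0.17). With the replicate number as a fixed block, Cxcl2 with RSKi47 at 1 h (-0.21) lost the call, and at 0.5 h Cxcl2 (0.27) and Cxcl3 (-0.44) in Elk1-/-Elk4-/- and Cxcl3 in Nfkb1 SSAA (-0.40) gained it. With arm and number as a random block (correlation 0.318) no call of this kind changed, but 11 calls were gained among differences in response to LPS or between LPS times. Beside the 6 given above for responses, these were Cxcl3 from 0.5 to 1 h in Map3k8 D270A (-0.55), in Elk1-/-Elk4-/- (-0.65) and with PD0325901 (-0.58), and from 1 to 2 h in Map3k8 D270A (-0.49) and Elk1-/-Elk4-/- (-0.54).

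Leaving out each replicate in turn gave -0.44 to -0.29 for Cxcl1 in Map3k8 D270A at 1 h, lost without WT replicate 6. It gave -0.40 to -0.23 for Cxcl2 there at 0.5 h, lost without WT replicates 7, 8 or 9 or Map3k8 D270A replicates 1 or 2. For Cxcl2 with RSKi47 at 1 h it gave -0.34 to -0.22, lost without RSKi47 replicate 4. At 0.5 h it gave 0.12 to 0.29 for Cxcl2 in Elk1-/-Elk4-/-, gained without WT replicates 7, 8 or 9, and -0.37 to -0.19 for Cxcl3, gained without Elk1-/-Elk4-/- replicate 4. Cxcl3 in Nfkb1 SSAA at 0.5 h gave -0.35 to -0.23, gained without WT replicate 4 or Nfkb1 SSAA replicates 1 or 4. The depth of each library cannot be read from the values, and how counting error bears on the low levels of Cxcl3 was not measured.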
